A study of Rattus norvegicus with 6 samples.

Results

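AMP-activated protein kinase (AMPK) was followed here through 10 genes: those of its catalytic subunits, Prkaa1 and Prkaa2, of the kinases and adaptors that switch it on, Stk11, Cab39, Strada, Camkk2 and Map3k7, of a phosphatase that can switch it off, Ppm1a, and of 2 proteins it phosphorylates, Crtc2 and Tbc1d1. The genes were taken by name from the array annotation, and all 10 were found, out of 14217 genes with a probe set of their own. They were read by 17 probe sets of 31042. The main value of a gene came from its probe set of highest mean level across all 6 arrays, and the others are given beside it.

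The cells were NRK-52E, an established epithelial line from rat kidney tubules, grown in high-glucose medium with fetal bovine serum. On 3 Affymetrix arrays the cells had received a lentivirus with a short hairpin RNA (shRNA) against AMPKα2 (labelled shAMPKα2 Knockdown), and on 3 arrays a control lentivirus (labelled shCtrl). Both groups had 24 h of TGF-β1 at 10 ng/mL, and TGF-β1 is a cytokine under which epithelial cells take on mesenchymal traits. Cells without TGF-β1 were not analysed here. The labels call the arrays of a group biological replicates. They do not say whether the infected cells were selected or cloned, or how separate the cultures were, so p-values measure the spread between these arrays. The comparison addresses how transcripts respond to targeting of AMPKα2 while TGF-β1 is present.

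AMPK is a trimer of a catalytic α, a scaffolding β and a nucleotide-binding γ subunit that senses a fall in cellular ATP. A catalytic subunit becomes active when an upstream kinase phosphorylates its activation loop. The main such kinase is LKB1, the product of Stk11, which works in a complex with the pseudokinase STRADα and the scaffold MO25α, the products of Strada and Cab39. CaMKK2 does so in response to calcium, and TAK1, the product of Map3k7 and itself a kinase of the TGF-β pathway, has been described as another activator. Active AMPK turns off anabolic pathways and turns on glucose uptake, fatty acid oxidation and autophagy, and in the kidney tubule it has been studied as a brake on fibrosis. All of this regulation acts on protein and phosphorylation, while the arrays measured transcripts only.

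Deposited log2 values were compared between the groups with limma over all 14217 genes, and a gene is said to rise or fall where its Benjamini-Hochberg adjusted p was under 0.05. Most genes passed on these arrays: 85.1% of all genes, 43.6% higher and 41.5% lower with the AMPKα2 shRNA, and the groups did not overlap in 87.1%. Values over probe sets spread less on the AMPKα2 shRNA arrays (SD of 1.76 to 1.82) than on the control arrays (2.17 to 2.19). The change of a gene followed its level, with a median of 0.81 among genes at control levels of 5 to 6 and of -0.90 at 9 to 10. Each member is therefore set beside the genes whose control mean lay within 0.25 of its own, called genes of like level below, and beside its changes under 3 other scalings of the arrays, namely quantile normalization, cyclic loess and median centring. Over all genes these scalings moved the median change from 0.05 to 0.16 (quantile), 0.09 (loess) and -0.17 (centring). Fewer cells of a type and less RNA per cell cannot be told apart in such bulk samples.

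Markers were read to check the cell type. On the control arrays the keratin genes Krt8 and Krt18 stood at 12.49 and 3.53. The tubule genes Ggt1, Pax8 and Aqp1 stood at 8.55, 6.57 and 6.18, and Cubn, Cdh1 and Epcam at 4.55, 4.31 and 2.97. Levels of different probe sets cannot be set against each other, however. Signal over background was not given, so whether the lower values are above background was not known. Of 12 measured tubule markers, 10 rose and 1 fell with the AMPKα2 shRNA, and their summed log2 level was 69.32 to 69.92 on the control arrays and 76.50 to 77.00 on the AMPKα2 shRNA arrays. Of 8 fibroblast and muscle markers 7 rose, with sums of 45.07 to 45.34 and 53.26 to 54.42. Of 4 immune markers 4 rose (sums of 19.21 to 19.43 and 22.71 to 23.44), of 3 endothelial markers 2 (12.36 to 13.35 and 14.24 to 15.03), and of 5 markers of other nephron cells 4 (21.14 to 21.72 and 24.97 to 25.47). Of these markers, 10 of 12, 6 of 8, 4 of 4, 3 of 3 and 5 of 5 had a control mean under that of the median gene. Genes at control levels of 4 to 5 and of 5 to 6 had median changes of 0.79 and 0.81. Those at 6 to 7 and 7 to 8 had 0.19 and -0.39. Some markers rose by more than that: Col1a1 by 2.98 from 6.46 and Acta2 by 1.48 from 7.74. The tubule genes Aqp1 and Pax8 rose by 1.39 and 1.20 from 6.18 and 6.57, while the muscle gene Myh11 did not pass. Over all genes 43.6% rose. No marker is at 0 on this scale, and the part of other cells in the changes below was not tested.

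Prkaa2, the gene of the targeted AMPKα2, did not pass the test. Among the main probe sets of the 10 genes, that of Prkaa1, the gene of the other catalytic subunit AMPKα1, had the largest fall. By the mean of probe sets per gene Prkaa1 changed by -0.94, less than Map3k7 (-1.496) and Cab39 (-1.42). At their main probe sets Cab39 and Map3k7 also fell by more than 2-fold. Prkaa1, Cab39 and Map3k7 were the members that fell under all 4 scalings, as did 26.4% of all genes. With the values as deposited, 8 of the 10 genes fell, 1 rose (Stk11) and 1 did not pass, where 41.5% of all genes fell and 43.6% rose. However, Ppm1a and Tbc1d1 rose and Stk11 fell in some of the other scalings. The groups did not overlap in any of the 10, which is read against the 87.1% of all genes, and 3 of 10 fell at least 2-fold, against 18.6% of all genes (30.2% in either direction). The 10 genes had a median change of -0.38 as deposited, against 0.05 over all genes, and of -0.07 (quantile), -0.18 (loess) and -0.59 (centring), against 0.16, 0.09 and -0.17. Most of them lay at control levels of 7 to 10, where the median gene changed by -0.39 (7 to 8), -0.74 (8 to 9) and -0.90 (9 to 10).

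**Figure D1:**
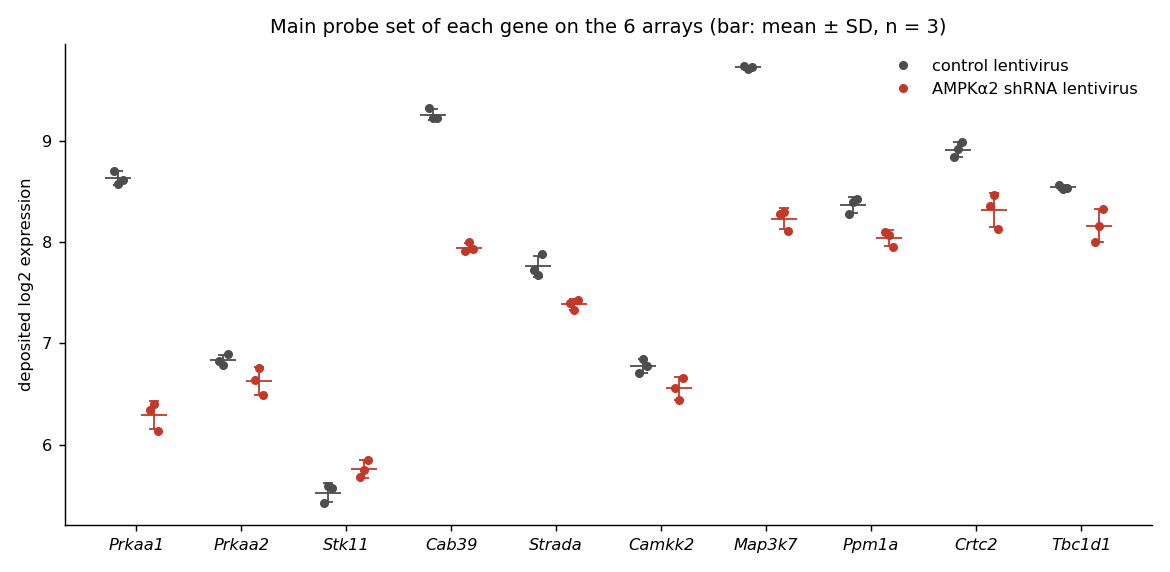
Deposited log2 expression (vertical axis) of the main probe set of each of the 10 genes on the 3 control arrays (grey) and the 3 AMPKα2 shRNA arrays (red), with points for arrays and bars for mean ± SD. The red points of Prkaa1 lie between 6.14 and 6.40 and its grey points between 8.57 and 8.71. The group means of Prkaa2 are 0.21 apart, and its highest red and lowest grey points are at 6.76 and 6.79.

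The 300 bases around the start (250 before, 50 after) of Prkaa2 and of the 3 genes that fell under all scalings are printed from RefSeq (assembly GRCr8), since these are the genes the comparison turns on. Capitals mark GGGCGG, the GC box of Sp-family factors, and TGACG, the core of the CREB site TGACGTCA, on either strand, so that a full CREB site would hold the core.
Prkaa2, chr5:125108275-125108574, minus strand: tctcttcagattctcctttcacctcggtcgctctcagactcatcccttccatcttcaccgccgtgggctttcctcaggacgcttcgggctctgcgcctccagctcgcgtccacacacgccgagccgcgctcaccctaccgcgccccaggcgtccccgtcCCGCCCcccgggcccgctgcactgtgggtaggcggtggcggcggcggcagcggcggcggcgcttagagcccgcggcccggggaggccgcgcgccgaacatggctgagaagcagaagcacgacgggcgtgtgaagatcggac
Prkaa1, chr2:55967525-55967824, plus strand: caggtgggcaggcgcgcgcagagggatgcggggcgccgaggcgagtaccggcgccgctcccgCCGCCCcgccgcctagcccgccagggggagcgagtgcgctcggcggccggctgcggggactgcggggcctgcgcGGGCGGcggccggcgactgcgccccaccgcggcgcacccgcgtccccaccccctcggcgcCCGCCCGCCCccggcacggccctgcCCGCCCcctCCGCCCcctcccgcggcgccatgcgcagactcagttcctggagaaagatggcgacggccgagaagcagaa
Cab39, chr9:93910849-93911148, plus strand: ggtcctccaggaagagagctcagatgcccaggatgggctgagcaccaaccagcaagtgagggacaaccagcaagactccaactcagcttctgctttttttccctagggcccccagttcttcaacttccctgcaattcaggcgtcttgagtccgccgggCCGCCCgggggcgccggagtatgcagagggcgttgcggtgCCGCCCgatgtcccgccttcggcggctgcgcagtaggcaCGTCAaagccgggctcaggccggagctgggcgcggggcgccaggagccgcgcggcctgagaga
Map3k7, chr5:51154102-51154401, plus strand: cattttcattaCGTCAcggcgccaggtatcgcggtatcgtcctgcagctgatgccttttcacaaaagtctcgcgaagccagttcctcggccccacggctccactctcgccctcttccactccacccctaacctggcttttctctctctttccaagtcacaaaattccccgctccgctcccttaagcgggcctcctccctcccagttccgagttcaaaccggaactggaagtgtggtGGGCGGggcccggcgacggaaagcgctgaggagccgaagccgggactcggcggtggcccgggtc
GGGCGG, with overlapping matches counted, occurred 6 times in the window of Prkaa1, which is 81.3% G and C, against 1 time in that of Prkaa2 (70.7%), 2 times in that of Cab39 (66.3%) and 1 time in that of Map3k7 (61.7%). TGACG occurred 1 time each in Cab39 and Map3k7 and not in these windows of Prkaa1 and Prkaa2. Of the 10 genes, 9 had a window in the table. GGGCGG was in 8 of these 9 and in 33.1% of all 33469 windows, TGACG in 3 of 9 and in 21.2%, and the full TGACGTCA in 0 of 9 and in 1.8%. The 33469 windows were not limited to the 14217 genes measured on the arrays. All 9 windows had more G and C than the median window, 51.7%. These matches describe letters, not bound sites.

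Prkaa2, which encodes the α2 catalytic subunit that the hairpin was made against, was read by 1 probe set. Its log2 values were 6.83, 6.79 and 6.89 on the control arrays and 6.64, 6.76 and 6.49 on the AMPKα2 shRNA arrays. Every AMPKα2 shRNA array lay below every control array, with a gap between 6.76 and 6.79 that was smaller than the range within either group. The log2 change was -0.21 (SE 0.09, 95% interval -0.41 to -0.0030; limma, adjusted p = 0.0552), or 86.6% of the control level on a linear scale (interval 75.2 to 99.8%). Quantile normalization gave -0.05 and cyclic loess -0.15, and both missed the threshold, whereas median centring gave -0.42 and passed. Leaving out AMPKα2 shRNA replicate 2, the highest of its group, gave -0.27, which passed (limma, adjusted p = 0.0181). Genes of like level (824 of them) had a median change of -0.08, and 44.1% of them had a lower change than Prkaa2. The labelled knockdown was thus not seen as a passing change of this probe set, and group names follow the labels. Where the probes lie on the transcript relative to the hairpin's target was not used here.

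Prkaa1, the gene of the α1 catalytic subunit, stood at 8.71, 8.57 and 8.61 on the control arrays and at 6.34, 6.40 and 6.14 on the AMPKα2 shRNA arrays. The groups were separated by more than 2 log2 units, many times the SD within them (0.07 and 0.14, n = 3). Its log2 change was -2.34 (SE 0.09; limma, adjusted p = 7.04e-09), a fall to 19.8% of its control level on a linear scale (95% interval 17.1 to 22.9%). The 3 further scalings kept the fall, at -2.04 (quantile), -1.91 (loess) and -2.55 (centring). Among 1050 genes of like level the median change was -0.80, and 32 of them, 3.05%, had a lower change. Prkaa1 was the member that lay below the 10th percentile of its genes of like level, which was -1.82. The change of Prkaa1 minus that of Prkaa2 was -2.13 on the same arrays, a difference given without a test.

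The other probe sets of Prkaa1 did not all follow the main one. Over all 31042 probe sets 81.9% passed, 47.8% higher and 34.1% lower, and of the 17 probe sets of the members 4 rose and 12 fell. Of its probe sets, 1369104_at is the one that the platform annotation lists under a RefSeq mRNA, and the main set, 1375970_at, is listed under another accession. The former stood at 7.39, 7.40 and 7.43 on the control arrays and at 6.34, 6.38 and 6.39 on the AMPKα2 shRNA arrays, a tight and fully separated pair of groups. It fell by 1.03 (SE 0.08), with -0.86 on quantile-normalized values and -0.89 on loess-normalized values, and 26.5% of probe sets of like level had a lower change. The third, 1394921_at, lay at 3.87 on the control arrays and rose by 0.55 (SE 0.11), close to the median of 0.59 for probe sets of its level. Its changes of 0.11 and 0.09 on quantile-normalized and loess-normalized values did not pass. The mean over the 3 probe sets changed by -0.94. A fall of Prkaa1 was thus seen in the 2 probe sets with the higher signal, at sizes that differed by more than 1 log2 unit.

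**Figure D2:**
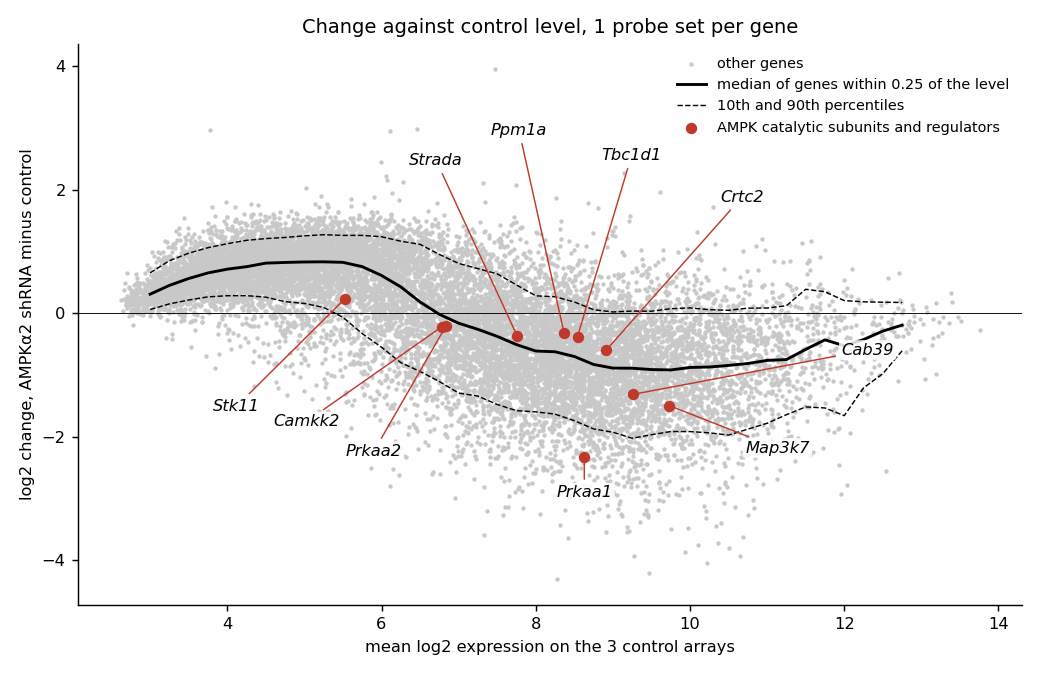
Log2 change (AMPKα2 shRNA minus control, vertical axis) of 14217 genes against their mean log2 level on the control arrays (horizontal axis), with the 10 AMPK genes in red, the median of genes within 0.25 of each level as a solid line and the 10th and 90th percentiles as dashed lines. Prkaa1, at -2.34, lies below the lower dashed line, and the other 9 genes lie between the dashed lines.

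Of the LKB1 complex, the scaffold gene fell in all 4 scalings, while the sign of the kinase and pseudokinase genes depended on the scaling. Cab39, which encodes the scaffold MO25α that holds LKB1 in its active shape, read 9.32, 9.23 and 9.23 on the control arrays and 7.91, 7.998 and 7.93 on the AMPKα2 shRNA arrays. The arrays of each group lay within 0.1 of each other and the groups more than 1 unit apart. Cab39 fell by 1.31 (SE 0.08, limma, adjusted p = 1.06e-07), to 40.2% of control on a linear scale. Its other probe set, 1372244_at, fell by 1.52 (SE 0.08), from 8.50 to 6.98. Both probe sets also changed downwards on quantile-normalized values (by -0.59 and -0.996) and on loess-normalized values (by -0.61 and -0.98). Genes of like level had a median of -0.89, and 29.3% of them had a lower change than Cab39.

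Stk11, the gene of the kinase LKB1, rose with the values as deposited, but by less than the median gene of its level, and it fell on loess-normalized values. Its main probe set read 5.42, 5.59 and 5.57 on the control arrays and 5.68, 5.75 and 5.85 on the AMPKα2 shRNA arrays. The groups did not overlap but came close to each other. The log2 change of 0.23 (SE 0.09, limma, adjusted p = 0.0285) was -0.09 on quantile-normalized values and 0.02 after median centring, neither of which passed, and -0.27 on loess-normalized values, a fall that passed. Genes of like level had a median of 0.82, and 18.8% of them had a lower change. The other probe sets of Stk11, 1381830_x_at and 1375238_at, rose by 0.62 and 0.72 from control levels of 5.01 and 4.88, near the medians of 0.70 and 0.69 for probe sets of their levels. These rises did not hold throughout: 1381830_x_at had 0.22 (quantile) and 0.03 (loess) and 1375238_at had 0.13 (loess), none of which passed. The suffix of the former marks probes that can bind other transcripts too. With control replicate 1, control replicate 3 or AMPKα2 shRNA replicate 3 left out, the change of the main probe set (0.18, 0.25 and 0.19) did not pass, nor did it with an intensity trend or array weights (limma, adjusted p = 0.0569 and 0.0515).

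Strada encodes STRADα, the pseudokinase that allosterically activates LKB1. The control arrays gave 7.73, 7.68 and 7.88 and the AMPKα2 shRNA arrays 7.40, 7.33 and 7.43. All AMPKα2 shRNA arrays were lower, and control replicate 3 stood somewhat above its group. The change of -0.38 (SE 0.09, limma, adjusted p = 0.00188) passed, but changes of 0.15 on quantile-normalized values and 0.10 on loess-normalized values had the other sign and did not. Genes of like level had a median of -0.51, so that Strada lay 0.13 above it. The 3 genes of the LKB1 complex thus shared no direction over the 4 scalings.

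Of the calcium-dependent and cytokine-linked activators, Map3k7 fell clearly and Camkk2 by little. Map3k7, the gene of TAK1, read 9.74, 9.71 and 9.73 on the control arrays, almost without spread, and 8.28, 8.30 and 8.11 on the AMPKα2 shRNA arrays. It changed by -1.496 (SE 0.08, limma, adjusted p = 6.60e-08), to 35.4% of control on a linear scale, and by -0.75 (quantile), -0.77 (loess) and -1.71 (centring) in the other scalings. Among 679 genes of like level the median was -0.92, and 23.6% had a lower change. Map3k7 had 1 probe set, so its fall has no second reading on these arrays.

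Camkk2, the gene of the calcium-responsive kinase CaMKK2, read 6.71, 6.85 and 6.78 on the control arrays and 6.56, 6.44 and 6.66 on the AMPKα2 shRNA arrays. The groups came close to each other without overlap. The change of -0.22 (SE 0.09, limma, adjusted p = 0.0362) passed, but those of -0.11 and -0.21 on quantile-normalized and loess-normalized values did not, nor did those with control replicate 1, 2 or 3 or AMPKα2 shRNA replicate 1 or 2 left out (-0.26, -0.19, -0.23, -0.23 and -0.17). Its other probe set, 1368753_at, listed under a RefSeq mRNA, went against the trend of its level. It stood at 4.69, 4.79 and 4.83 on the control arrays and at 4.39, 4.22 and 4.44 on the AMPKα2 shRNA arrays, and fell by 0.42 (SE 0.09), where the median probe set of like level was at 0.69. Of those probe sets, 5.07% had a lower change. After quantile normalization and cyclic loess this probe set fell by 0.87 and 0.97. The larger fall of Camkk2 was therefore in the probe set that was not the main one.

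**Figure D3:**
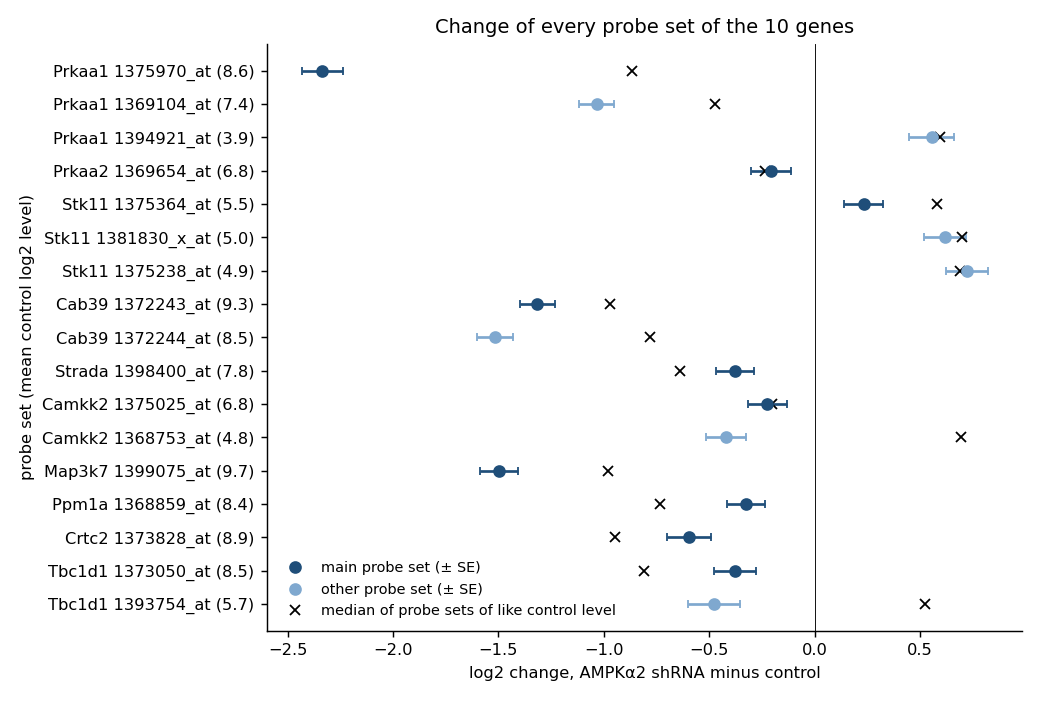
Log2 change ± SE (horizontal axis, AMPKα2 shRNA minus control) of all 17 probe sets of the 10 genes, main probe sets dark and others light, with the mean control level in parentheses and a cross at the median change of probe sets of like control level. The widest distances from the crosses are those of Prkaa1 1375970_at (-1.47) and Camkk2 1368753_at (-1.11), and of 17 probe sets 12 fell, 4 rose and 1 did not pass.

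Ppm1a encodes PP2Cα, a phosphatase that removes the activating phosphate of AMPK and also that of receptor-activated SMADs. It read 8.28, 8.39 and 8.43 on the control arrays and 8.10, 8.07 and 7.95 on the AMPKα2 shRNA arrays. The change of -0.33 (SE 0.09, limma, adjusted p = 0.00437) was above the median of -0.65 among its genes of like level. It turned to 0.35 on quantile-normalized values and 0.33 on loess-normalized values, and both of these passed. The direction of Ppm1a thus depended on the scaling.

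The direction of the members downstream of AMPK depended on the scaling too. Crtc2 encodes a coactivator of CREB that AMPK and the salt-inducible kinases keep in the cytoplasm by phosphorylation. Its values were 8.84, 8.92 and 8.99 on the control arrays and 8.35, 8.47 and 8.13 on the AMPKα2 shRNA arrays. The change of -0.60 (SE 0.10, limma, adjusted p = 0.000214) passed, while 0.14 and 0.11 on quantile-normalized and loess-normalized values did not, and its genes of like level had a median of -0.87.

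Tbc1d1 encodes a Rab GTPase-activating protein whose phosphorylation by AMPK releases glucose transporter vesicles. The main probe set read 8.57, 8.52 and 8.54 on the control arrays and 8.0002, 8.16 and 8.33 on the AMPKα2 shRNA arrays, which spread more widely (SD of 0.16 against 0.02). Its change of -0.38 (SE 0.10, limma, adjusted p = 0.00347) turned to 0.34 on quantile-normalized values and 0.30 on loess-normalized values, which passed in the other direction. The other probe set, 1393754_at, fell by 0.48 (SE 0.12) from 5.71, where probe sets of like level had a median of 0.52, and by 0.82 and 1.03 on quantile-normalized and loess-normalized values. The probe sets of Tbc1d1 thus fell together as deposited and parted after these scalings.

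Across the 10 genes, 9 lay between the 10th and 90th percentile of their genes of like level and 7 between the quartiles. Below the lower quartile were Prkaa1, Stk11 and Map3k7. The members above the median of their level were Strada, Ppm1a, Crtc2 and Tbc1d1, by 0.13 to 0.37. After quantile normalization 3 members fell, 2 rose and 5 did not pass, and on loess-normalized values 4 fell, 2 rose and 4 did not pass, where 72.7% and 71.8% of all genes passed (28.9% falling and 43.8% rising in the former, 31.5% and 40.2% in the latter). After median centring 9 fell and 0 rose, where 83.1% of all genes passed (48.2% and 35%). Falls in all 4 scalings were found in 3 of 10 members and in 26.4% of all genes, while 52% kept 1 direction in all 4.

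**Figure D4:**
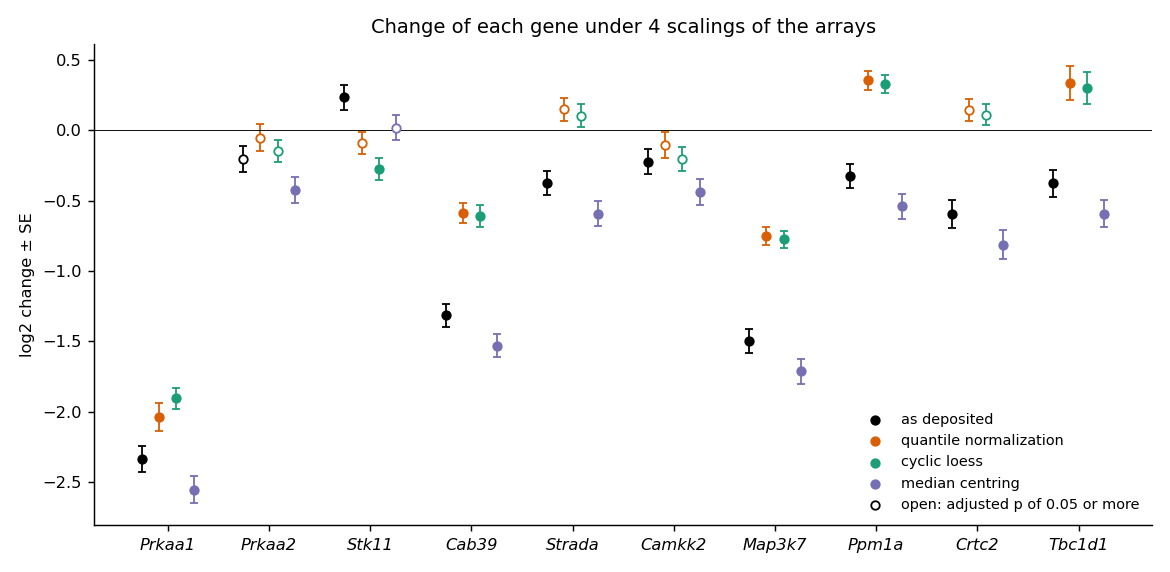
Log2 change ± SE (vertical axis, AMPKα2 shRNA minus control) of the main probe set of each of the 10 genes under 4 scalings (as deposited, quantile, cyclic loess and median centring), with open points where the adjusted p was 0.05 or more. Prkaa1, Cab39 and Map3k7 lie below 0 with filled points in all 4, while Strada, Ppm1a, Crtc2 and Tbc1d1 lie on both sides of 0.

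The genes with the most similar profiles were found by the root mean square distance between mean-centred log2 values over the 6 arrays. Genes with a provisional symbol were left out of this search. Nearest to Prkaa1 were Sh3d19, Kmt5a and Otud4, at distances of 0.046, 0.048 and 0.050 and with changes of -2.37, -2.31 and -2.34. Nearest to Prkaa2 were Cabin1, Selenbp1 and F2rl1, at 0.024, 0.025 and 0.030, with changes of -0.16, -0.19 and -0.19. Such distances take in the size of the difference between the groups.

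The remaining genes around AMPK were taken from 7 lists with 70 measured genes, of which 40 fell, 21 rose and 9 did not pass as deposited, with a median of -0.33 that turned to 0.20 (quantile) and 0.17 (loess). Of these 70 genes, 26 fell and 15 rose in all 4 scalings, against 26.4% and 25.5% of all genes. The split of the lists moved with the scaling: 28 fell and 34 rose on quantile-normalized values, and 28 and 32 on loess-normalized values.

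Of the 5 regulatory subunit genes of AMPK, 2 rose and 2 fell as deposited, beside 43.6% and 41.5% of all genes, but 3 rose and 0 fell under both the quantile and the loess scaling. Prkab2, which encodes the β2 scaffold, was the subunit gene that rose in all 4 scalings, by 0.95 (SE 0.11) as deposited, and its other probe set rose by 1.27. Prkag3, a γ subunit gene known from skeletal muscle, rose by 0.52, but 0.20 (quantile) and 0.006 (loess) missed the threshold. Prkab1 and Prkag1 had -0.24 and -0.29 as deposited but 0.50 and 0.47 on quantile-normalized values. Prkag2 had -0.18, which did not pass. The control levels were 5.49 (Prkab2), 5.34 (Prkag3), 8.89 (Prkab1), 9.53 (Prkag1) and 7.10 (Prkag2). Genes at 5 to 6 had a median change of 0.81, those at 7 to 8 of -0.39, at 8 to 9 of -0.74 and at 9 to 10 of -0.90.

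Among 12 measured LKB1 complex paralogs and AMPK-related kinases, 6 fell and 5 rose as deposited, beside 41.5% and 43.6% of all genes. The 6 that fell did so in all 4 scalings, as did 26.4% of all genes. The 6 were the 3 genes of the salt-inducible kinases, which phosphorylate CRTC coactivators, and Mark1, Mark2 and Mark3. The latter changed by -0.56, -1.22 and -1.15 from control levels of 7.11, 8.62 and 9.81. Sik1, Sik2 and Sik3 had control levels of 8.21, 8.53 and 8.23. The median gene changed by -0.39 at 7 to 8, by -0.74 at 8 to 9 and by -0.90 at 9 to 10. Sik2 fell by 1.62 (SE 0.13), with -0.79 at its other probe set. Sik1 changed by -1.54 (SE 0.20), with 0.11 at its other probe set, which did not pass. Sik3 changed by -1.29 at its main probe set, and its other probe set is not given here. Brsk1, a kinase gene known from neurons, rose by 1.04 (SE 0.09) and in all 4 scalings. Snrk rose by 0.73, with 0.16 at its other probe set and 0.26 on loess-normalized values, neither of which passed. Sik3, Mark1, Mark2 and Mark3 were named after their values were seen, to complete the 6.

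Partners of the activating kinases moved in both directions: of 5 measured, 2 fell, 1 rose and 2 did not pass. Of all genes 41.5% fell and 43.6% rose. Of the TAK1-binding adaptors, Tab2 rose by 0.74 (SE 0.09) and Tab3 fell by 1.31 (SE 0.10), with -2.60 at its other probe set. The third, Tab1, had 0.27, which did not pass. Calm2, a calmodulin gene, fell by 1.01. The directions of Tab2, Tab3 and Calm2 held in all 4 scalings.

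All 10 measured phosphatase genes fell as deposited, with a median of -1.02, and 6 did so in all 4 scalings. Of all genes 41.5% fell as deposited and 26.4% in all 4 scalings. The control levels of the 10 were 7.50 to 11.18, and the median gene changed by -0.39 at 7 to 8 and by -0.90 at 9 to 10. After quantile normalization 6 fell and 2 rose, and on loess-normalized values 7 fell and 2 rose. The largest falls were in PP2A genes. Ppp2r1b, a scaffold subunit, fell by 3.04 (SE 0.10), from 9.64 to 6.60, and Ppp2ca, a catalytic subunit, fell by 2.48 (SE 0.13), but a further probe set, at a control level of 4.90, rose by 0.61.

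The CRTC-CREB axis had 6 genes that fell and 5 that rose among 13 as deposited, beside 41.5% and 43.6% of all genes. The median of the 13 was -0.08. The median turned to 0.49 (quantile; 5 fell, 7 rose) and 0.40 (loess; 4 fell, 7 rose). Genes of the CREB family of factors parted in all 4 scalings. Creb1 fell by 1.55 (SE 0.08), Atf1 fell by 1.70 (SE 0.08), and Crem rose by 1.05 (SE 0.09). Further probe sets of Creb1 gave -0.44, which passed, and -0.03 and 0.10, which did not, at control levels under 4 for the latter pair, and those of Crem gave 0.22 to 0.75, of which 1, at 0.24, did not pass. Ppargc1a, a CREB target gene, rose by 1.55 from a control level of 4.002, with 0.42 and 0.23 at its other probe sets, the latter not passing, and 0.73 as the mean of its probe sets.

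In the glucose uptake arm 6 of 10 genes fell and 2 rose as deposited, where 41.5% of all genes fell and 43.6% rose. The balance turned under the quantile and loess scalings, which each gave 4 that fell and 6 that rose. Akt1, a kinase gene of insulin signalling, fell by 2.51 (SE 0.08), with -2.79 and 0.69 at its other probe sets, the latter at a control level of 5.87. Rab10, a GTPase gene of transporter vesicles, fell by 2.29 (SE 0.08), and by 1.10 at its other probe set. Slc2a4, the gene of the insulin-responsive glucose transporter, rose by 1.19 (SE 0.08) from 5.07, with 0.76 at its other probe set. Rab8a had 0.20, which passed as deposited but turned to -0.02 after median centring, and which passed with AMPKα2 shRNA replicate 3 left out but not with any of the other 5 arrays left out (limma, adjusted p of 0.0557 to 0.207).

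Of 15 genes of AMPK substrates 8 fell and 6 rose as deposited, beside 41.5% and 43.6% of all genes. Here too the balance turned, to 4 that fell and 9 that rose (quantile) and 4 and 8 (loess). Mff, the mitochondrial fission factor gene, fell by 1.74 (SE 0.08), with 0.25 at its other probe set, which did not pass, and Gys1, the glycogen synthase gene, fell by 1.39 (SE 0.08). Ulk1, the gene of a kinase that starts autophagy, rose by 1.41, and by 1.12 at its other probe set. Pfkfb3, a regulator of glycolysis, rose by 1.34 (SE 0.08), but another probe set of it fell by 1.29 from a higher control level of 7.48, so its direction depended on the probe set.

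**Figure D5:**
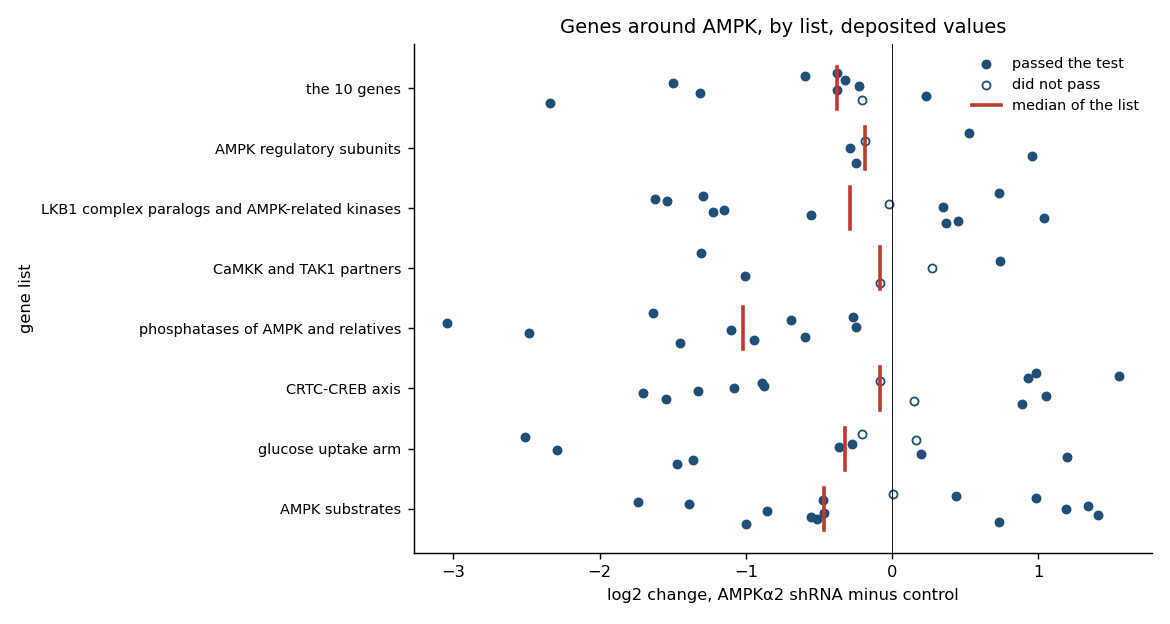
Log2 change (horizontal axis, AMPKα2 shRNA minus control, values as deposited) of the 10 genes and of the 70 measured genes of 7 lists around AMPK, 1 point per gene, filled where the test passed, with the median of each list in red. The phosphatase list lies wholly below 0 with a median of -1.02, and the other lists lie on both sides of 0. The phosphatase genes had control levels of 7.50 to 11.18, and the median gene changed by -0.39 at 7 to 8 and by -0.90 at 9 to 10.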

How the data were processed

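Values of 6 arrays were analysed from 1 table, in which the authors deposited log2 expression values, 1 per probe set and array. Per the labels' protocols, RNA was extracted with Trizol and labelled with biotin by the one-cycle Affymetrix method. Background correction, probe summary and normalization are not given in the sources used here. Of the probe sets, 57 array controls were left out, and 20826 of the other 31042 carried 1 gene symbol. Testing used limma (version 3.58.1, R version 4.3.3; lmFit, eBayes, 2-sided) on 1 probe set per gene, or on all probe sets for the further probe sets of a gene, with Benjamini-Hochberg adjustment over all genes or all probe sets and a threshold of 0.05. No filter or covariate was used. Genes of like level had a control mean within 0.25. The number of arrays limits the precision, and signal over background was not given.

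All 10 genes with every probe set were named, all regulatory subunits, up to 2 rising and 2 falling genes per list of largest change past the threshold, and the 3 nearest profiles of Prkaa1 and Prkaa2. Sik3, Mark1, Mark2, Mark3 and Tab1 are the exceptions. Of 78 listed genes 70 were measured. The members, lists and alternatives were chosen with earlier results of these data known. The limma fit was tested on simulated data in which, unlike on these arrays, few genes changed and changes did not follow level. The other steps were not simulated. Alternatives were quantile normalization, cyclic loess in 3 iterations, median centring, a floor of 4, removal of the lowest 25% or 50% of genes, other choices of probe set, an intensity trend, robust variance, weights per array, a block for the replicate number, other windows for like level (0.5, or by the mean over all 6 arrays) and leaving out each array. Gene names came from the platform annotation, and the RefSeq table of GRCr8 changed 0 of them. Promoter windows came from RefSeq.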

Additional observations from a re-analysis of the deposited data

How the results depend on the processing

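Prkaa1, Cab39 and Map3k7 kept their fall and passed in each of the 18 alternatives run, with changes of -2.55 to -0.94, -1.53 to -0.59 and -1.71 to -0.75. Several of these alternatives left the changes of the 3 genes as they were and varied only the test. These were the floor, the removal of low genes, the intensity trend, robust variance and the replicate block. The choice of probe set could not alter Map3k7, which has 1 probe set. The number of members that passed, 9, was 5 (quantile normalization), 6 (cyclic loess), 7 (intensity trend) and 7 to 9 with an array left out. With the intensity trend Stk11 and Camkk2 did not pass (limma, adjusted p = 0.0569 and 0.0509), nor did Stk11 with array weights (limma, adjusted p = 0.0515). The share of all genes that passed, 85.1%, was 81.4 to 84.6% with an array left out, and the number of genes of the lists that passed, 61, was 57 to 62. Quantile normalization and cyclic loess turned the signs of Stk11 (-0.090 and -0.27), Strada (0.15 and 0.10), Ppm1a (0.35 and 0.33), Crtc2 (0.14 and 0.11), Tbc1d1 (0.34 and 0.30), Prkab1 (0.50 and 0.47), Prkag1 (0.47 and 0.42) and Prkag2 (0.12 and 0.027). Prkag2 also had 0.23 with the mean of its probe sets and 0.85 with the most variable, and Rab8a had -0.017 after median centring. Quantile normalization gives all arrays 1 range by construction, and the cause of the turned signs was not tested. The change of Prkaa2 moved to -0.42 with median centring and to -0.27 with AMPKα2 shRNA replicate 2 left out, and both passed. Removal of the lowest 25% of genes (limma, adjusted p = 0.0474) and averaging of probe sets (limma, adjusted p = 0.0446) brought Prkaa2 under the threshold too. In these settings the values of its 1 probe set and the change of -0.21 stayed the same, and only the test varied. They are therefore not further readings of Prkaa2.

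With the replicate number as a block, 8 members passed, since Camkk2 did not (limma, adjusted p = 0.0577), Rab8a did not pass either (limma, adjusted p = 0.0796), and 84.7% of all genes and 61 genes of the lists passed. Same-numbered arrays did not deviate together (correlations of deviations from the group means of -0.02, 0.01 and -0.10). The labels do not say whether such arrays shared a culture or a processing day, and these correlations cannot show it. Signal over background was not given, so a floor could not be told from a low level.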
